A study of Mus musculus with 7 samples.

Results

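The mitochondrial carriers of the Slc25 family were examined as 44 genes, out of 19933 genes with a named row on the array. A gene entered when its symbol read Slc25a followed by a number and it was the only symbol annotated to a row. The brightest such row stood for the gene, and the citrate carrier Slc25a1 and the carnitine-acylcarnitine carrier Slc25a20 were left out. The rule used no measured value beyond the pick of the brightest row, but the members were chosen with earlier results of these data known. The 44 symbols were carried by 48 rows.

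Mitochondrial carriers are small membrane proteins encoded in the nucleus and imported into the inner mitochondrial membrane, where most exchange one metabolite for another. They pass nucleotides, phosphate, amino acids, dicarboxylates, cofactors and metal ions that the inner membrane would otherwise hold back. In liver they serve oxidative phosphorylation, the malate-aspartate shuttle, urea synthesis and glucose production from amino acids.

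The knockout group (3 arrays) came from C57BL/6 male mice aged 4 months that received an adeno-associated virus (AAV) carrying Cre recombinase, with HDAC3 knockout given as the genotype. The rescued group (4 arrays) came from males of the same strain and age that received the Cre virus together with an AAV that makes wild-type HDAC3 with a Flag tag. The titles of these 4 arrays read WT liver, while their descriptions name both viruses. The HDAC3 enzyme is the histone deacetylase of the nuclear receptor corepressor complexes. All mice carried the Cre virus, ate chow freely and were killed 2 weeks after injection at 5 pm (ZT10), and total liver RNA was hybridised to Affymetrix Mouse Gene ST arrays. The groups therefore differ by HDAC3 and by an extra vector, which cannot be told apart, and no liver without a virus was analysed here. The labels used here name neither the promoter of the Cre virus nor the deleted exons. The labels call the arrays biological replicates.

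Levels below are log2 intensities, differences are knockout minus rescued on that scale, and a gene is said to be called when limma's adjusted p over all genes was under 0.05. Hdac3 itself read 8.93, 8.75 and 9.07 in knockout livers, against 9.23, 9.45, 9.55 and 9.38 in rescued livers, a difference of -0.48 (SE 0.10, adjusted p = 0.0124). All knockout arrays lay below all rescued arrays, though leaving out knockout replicate 1 ended the call. The arrays' median intensity ran from 105 to 111 in knockout and from 96.3 to 102 in rescued livers, so the groups were offset as deposited. The median difference over all genes was 0.09 as deposited and -0.03 once each array was centred on its median. The 8 hepatocyte markers were all measured and none was called, with summed intensities of 81703 to 83621 in knockout and 80311 to 83091 in rescued arrays. Of 34 measured markers of other cell types, 4 were called as deposited, against 14.4% of all genes. These were lower Alas2 (erythroid) and Clec4g (endothelial), and higher Lrat (stellate) and Acta1 (muscle). Of these only Alas2 also kept its call after quantile normalization, median centring and cyclic loess. The other measured markers of the same cell types were not called. Their differences went in both directions for endothelial and stellate cells. All measured muscle markers, Acta1 included, differed upwards (0.17 to 0.32 as deposited), and the other erythroid markers differed upwards, opposite to Alas2. In bulk liver, fewer cells of a type and less RNA per cell cannot be told apart.

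Of the 44 carriers, 9 were higher and 6 lower in knockout livers, so 34.1% were called. The share over all genes was 14.4%, with 9.54% higher and 4.85% lower. Dim rows bear on this share: among genes whose mean over the arrays reached the 95th percentile of 1190 olfactory and vomeronasal receptor genes (6.21 on the log2 scale), 17.1% were called, and 15 of 38 such carriers. Called differences were 1.19-fold to 1.76-fold among higher members and 1.23-fold to 1.49-fold among lower ones, and 3 of 44 members were called and at least 1.5-fold apart, against 1.61% of all genes. At an unadjusted p under 0.05 there were 22 of 44 members and 35.7% of all genes. The median difference was 0.11 over the members and 0.09 over all genes. The medians were 0.0005 over the members and 0 over all genes after cyclic loess, and -0.0055 over the members and -0.03 over all genes with median centring.

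**Figure D1:**
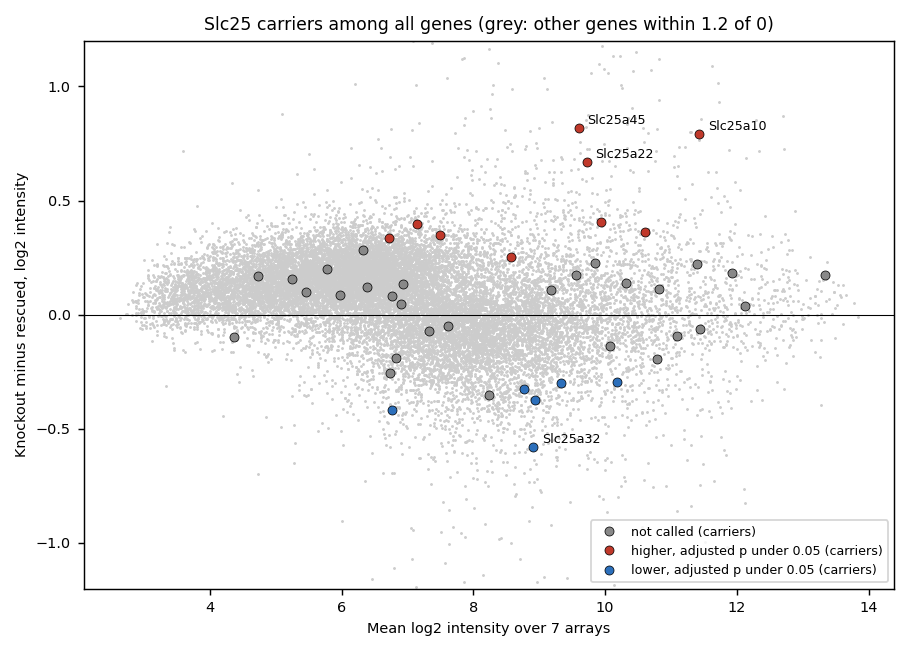
Difference (knockout minus rescued, log2 intensity) against mean log2 intensity over 7 arrays, with the 44 carriers as large points (red called higher, blue called lower, grey not called) over 19851 other genes as small grey dots. Another 38 genes lie outside the axis. Slc25a45, Slc25a10 and Slc25a22 stand highest among the carriers and Slc25a32 lowest.

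The same direction and call were found as deposited and in 3 rescalings for 10 members, 5 higher and 5 lower, against 6.6% of all genes. Of these 10, the higher Slc25a45, Slc25a10, Slc25a22 and Slc25a42 and the lower Slc25a32 also kept their calls with each of the 7 arrays left out in turn. The share of all genes that kept a call in all 7 fits is not given here. In the separate fits with an array left out, 4.5% to 16.4% of all genes were called. For 19 of 44 members every knockout array lay on the same side of every rescued array, against 29.6% of all genes on the values as deposited.

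**Figure D2:**
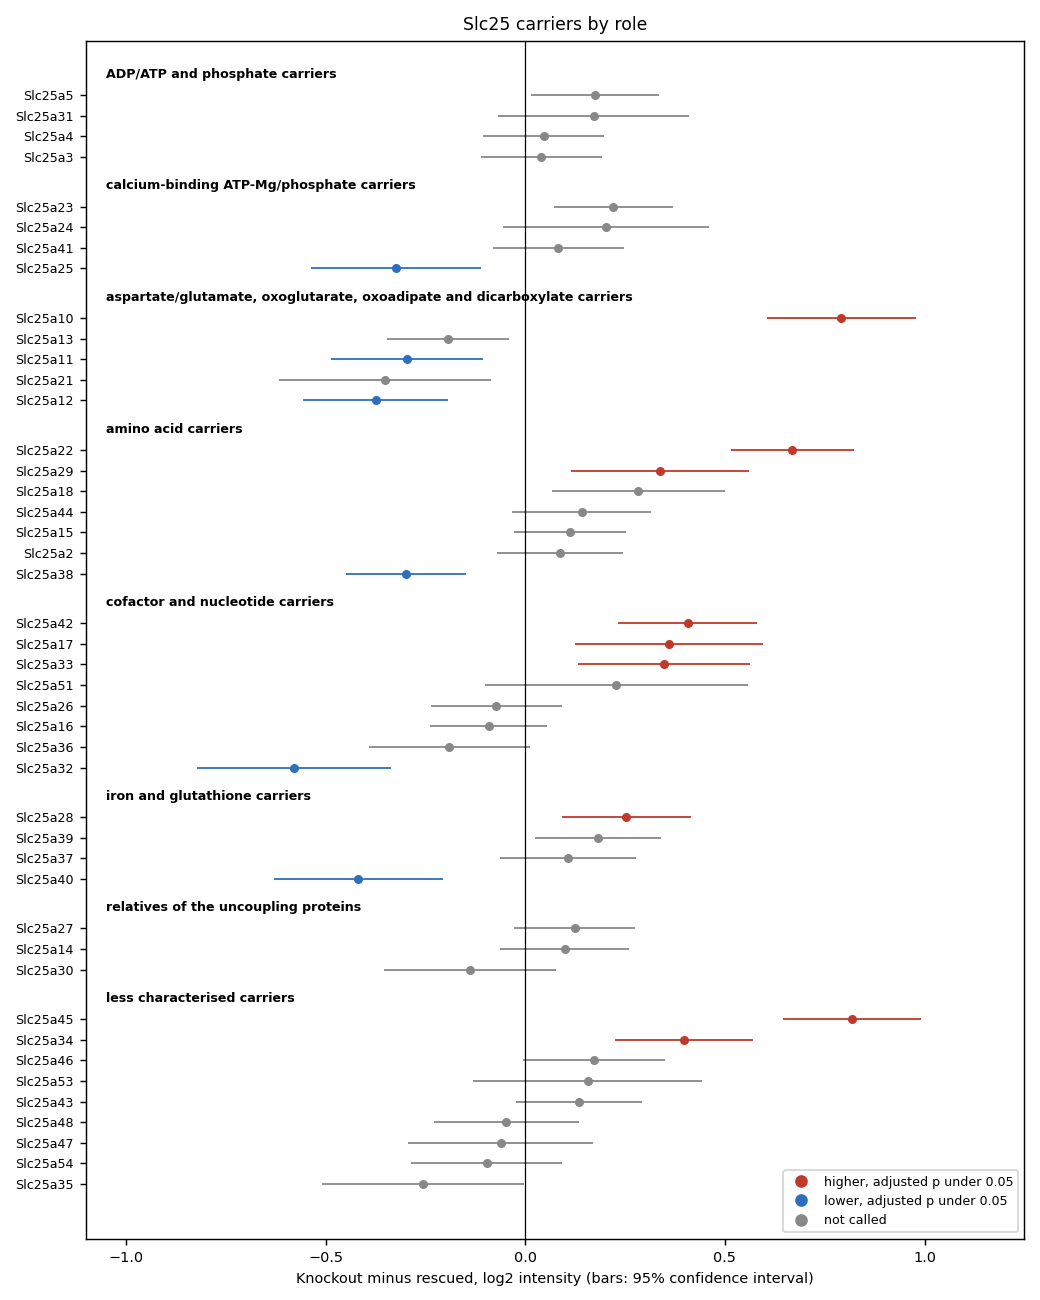
Differences (knockout minus rescued, log2 intensity) of all 44 carriers with 95% confidence intervals, grouped by transport role. Red points are called higher, blue points called lower and grey points not called. Calls of both directions occur in 4 of the 8 role groups, while the ADP/ATP and phosphate carriers and the relatives of the uncoupling proteins hold none.

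Upstream sequences are shown for the 2 higher and the 2 lower carriers with the largest differences among those called in every scaling and listed with 1 start site, so that the letters before their transcription starts can be read beside their values. The windows hold the 250 bases before the start, 5′ to 3′ on the gene's strand, from RefSeq, build GRCm38.p6. Slc25a45 lies at chr19:5877572-5877821 (plus strand), Slc25a10 at chr11:120491587-120491836 (plus), Slc25a40 at chr5:8422588-8422837 (plus) and Slc25a12 at chr2:71367756-71368005 (minus). Capitals mark exact matches, on either strand, to the nuclear receptor motif AGGTCA, the E-box CACGTG or the GC box GGGCGG, none of which overlap here.
Slc25a45: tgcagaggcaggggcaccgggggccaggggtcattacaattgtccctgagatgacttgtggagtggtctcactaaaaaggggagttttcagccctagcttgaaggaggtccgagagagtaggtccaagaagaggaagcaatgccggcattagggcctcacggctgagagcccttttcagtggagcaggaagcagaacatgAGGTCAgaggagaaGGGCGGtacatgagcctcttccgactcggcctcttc
Slc25a10: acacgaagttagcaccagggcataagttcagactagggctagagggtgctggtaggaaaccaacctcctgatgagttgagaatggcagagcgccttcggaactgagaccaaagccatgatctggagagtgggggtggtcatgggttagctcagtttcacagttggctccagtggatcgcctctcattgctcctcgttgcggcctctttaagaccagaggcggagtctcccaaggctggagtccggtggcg
Slc25a40: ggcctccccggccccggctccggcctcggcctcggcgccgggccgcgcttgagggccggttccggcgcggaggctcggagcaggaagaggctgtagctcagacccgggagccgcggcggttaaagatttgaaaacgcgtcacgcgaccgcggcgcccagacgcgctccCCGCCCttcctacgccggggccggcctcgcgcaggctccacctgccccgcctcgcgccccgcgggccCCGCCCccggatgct
Slc25a12: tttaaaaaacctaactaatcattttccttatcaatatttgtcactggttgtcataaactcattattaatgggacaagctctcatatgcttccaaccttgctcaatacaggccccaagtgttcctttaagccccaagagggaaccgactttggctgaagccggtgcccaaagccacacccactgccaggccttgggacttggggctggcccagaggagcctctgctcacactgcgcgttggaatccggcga

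Slc25a45 held 1 receptor motif and 1 GC box, Slc25a40 held 2 GC boxes, and the windows of Slc25a10 and Slc25a12 held none of these letters. Of 44 windows matched to 34 carriers, 4 held the receptor motif (9.09%), 7 the E-box (15.9%) and 30 the GC box (68.2%). The shares among all 32851 windows of this length were 14.0%, 6.02% and 32.7%. For the 14 called carriers with a window, 14 of 18 windows held the GC box, 2 the receptor motif and 1 the E-box. These matches describe the letters only.

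Among carriers of dicarboxylates and of the malate-aspartate shuttle, 1 of 5 was higher and 2 were lower. Slc25a10, the dicarboxylate carrier that exchanges malate or succinate for phosphate, read 11.96, 12.01 and 11.68 in knockout livers, against 11.14, 11.09, 11.08 and 11.05 in rescued livers. Every knockout array lay above every rescued array, and knockout replicate 3 was the lowest of its group. The difference was 0.79 (SE 0.08), or 1.73-fold higher (limma, adjusted p = 0.000529), and it ran from 0.68 to 0.89 over all alternatives.

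Slc25a12 and Slc25a13 encode the calcium-regulated aspartate/glutamate carriers aralar and citrin, of which citrin is the main form in liver. Slc25a12 read 8.73, 8.64 and 8.81 in knockout livers, against 9.04, 9.03, 9.05 and 9.28 in rescued livers. The groups did not overlap, and rescued replicate 4 stood above the other rescued arrays. Its difference was -0.38 (SE 0.08, adjusted p = 0.0181), and it was not called with knockout replicate 1 or 2 left out. Slc25a13 read 10.71, 10.62 and 10.71 in knockout livers, against 10.79, 10.83, 10.97 and 10.88 in rescued livers. Its difference of -0.19 (95% confidence interval -0.35 to -0.04) was not called (adjusted p = 0.0793), although its groups did not overlap either, and it was called after median centring (-0.31, adjusted p = 0.0233). Whether the differences of these paralogs differ from each other was not tested.

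The oxoglutarate/malate carrier Slc25a11, the other transporter of the malate-aspartate shuttle, read 10.19, 9.94 and 9.90 in knockout livers, against 10.41, 10.26, 10.34 and 10.22 in rescued livers. Knockout replicate 1 came close to the rescued arrays without crossing them. The difference was -0.30 (SE 0.09, adjusted p = 0.0439), called in all 4 scalings but with only 1 of the 7 arrays left out, knockout replicate 1. The oxoadipate carrier Slc25a21 averaged 8.04 ± 0.15 in knockout (SD, n = 3) and 8.40 ± 0.23 in rescued livers (SD, n = 4). Its difference of -0.35 was not called as deposited (adjusted p = 0.0705). Slc25a21 was called lower after median centring (-0.47, adjusted p = 0.0255) and, of the 7 sets with an array left out, only without rescued replicate 2 (adjusted p = 0.04355). Of the 4 cytosolic and mitochondrial enzymes of the shuttle (Got1, Got2, Mdh1 and Mdh2) none was called. Got1, the cytosolic aspartate aminotransferase, had the smallest p of them, with a difference of 0.35 (adjusted p = 0.0522). Got1 was called with trend and robust spread (adjusted p = 0.0353), among genes at or above the median level (0.0480) and without rescued replicate 3 (0.0391).

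Of 7 amino acid carriers, 2 were higher and 1 lower. Slc25a22, which brings glutamate into the matrix with a proton, read 10.15, 10.11 and 10.03 in knockout livers, against 9.35, 9.52, 9.46 and 9.40 in rescued livers. The groups were far apart relative to their spread, with a difference of 0.67 (SE 0.07), 1.59-fold higher (adjusted p = 0.000467). Its paralog Slc25a18, the other glutamate carrier, was dimmer and not called, at 6.49 ± 0.06 in knockout (SD, n = 3) and 6.21 ± 0.19 in rescued livers (SD, n = 4). The difference of Slc25a18 was 0.28 as deposited and 0.14 after cyclic loess (adjusted p = 0.0723 and 0.340). With an array left out, Slc25a18 was called only without rescued replicate 1 (adjusted p = 0.03525).

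Slc25a38 encodes the carrier that brings in glycine for the first step of haem synthesis. It read 9.12, 9.25 and 9.12 in knockout livers, against 9.39, 9.48, 9.46 and 9.51 in rescued livers, with no overlap between the groups. The difference was -0.30 (SE 0.07, 1.23-fold lower, adjusted p = 0.0204). Leaving out knockout replicate 1, or any of rescued replicates 2 to 4, ended the call. Alas2, the erythroid enzyme that uses this glycine, read 8.50, 8.17 and 8.56 in knockout livers, against 9.49, 9.47, 9.54 and 9.74 in rescued livers (difference -1.15, adjusted p = 0.000189). Of the 3 erythroid markers measured, Alas2 was lower, while Slc4a1 (0.37) and Epb42 (0.20) were not called, and Epb42 lay within the receptor genes' range. The summed intensity of these 3 was 459 to 603 in knockout and 877 to 1025 in rescued arrays. Of the 3 only Alas2 was lower in knockout livers, so this sum follows Alas2 and does not show the list falling. The part of Alas2-expressing cells in the value of Slc25a38 was not tested.

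Slc25a29, a carrier of arginine, lysine and other basic amino acids, was called as deposited only. It read 6.68, 7.06 and 6.99 in knockout livers, against 6.66, 6.48, 6.46 and 6.69 in rescued livers, and knockout replicate 1 fell among the rescued arrays. The difference was 0.34 (adjusted p = 0.0480) as deposited, and 0.23 after quantile normalization (adjusted p = 0.202), 0.22 after median centring (0.188) and 0.22 after cyclic loess (0.214). Of the 7 sets with an array left out, it was called only without knockout replicate 1 or rescued replicate 1.

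Slc25a15, the ornithine carrier of the urea cycle, was not called at 10.89 ± 0.03 in knockout (SD, n = 3) and 10.77 ± 0.05 in rescued livers (SD, n = 4). Its difference was 0.11 (95% confidence interval -0.03 to 0.25). The branched-chain amino acid carrier Slc25a44 had a difference of 0.14 (adjusted p = 0.219), and Slc25a2 lay within the receptor genes' range. Of 5 urea cycle enzymes measured, 1 was called, against 14.4% of all genes. This was Otc, which joins the imported ornithine to carbamoyl phosphate and read 11.15, 11.16 and 11.29 in knockout livers, against 11.52, 11.58, 11.60 and 11.75 in rescued livers. Its difference was -0.42 (adjusted p = 0.00853), called in every scaling and with each array left out.

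Of 8 measured carriers of cofactors and nucleotides, 3 were higher and 1 lower. Slc25a42, which exchanges coenzyme A for adenine nucleotides, read 10.21, 10.19 and 10.13 in knockout livers, against 9.67, 9.66, 9.86 and 9.89 in rescued livers. The groups did not overlap, and the difference was 0.41 (SE 0.08), 1.33-fold higher (adjusted p = 0.0111). Of 7 enzymes of coenzyme A synthesis, 1 was called (14.3%), near the 14.4% of all genes. This was Coasy, which carries out the last steps, at 10.35, 10.50 and 9.98 in knockout livers, against 9.80, 9.73, 9.81 and 9.80 in rescued livers. Its difference of 0.49 (adjusted p = 0.0173) rested on wide knockout arrays and was not called without knockout replicate 1 or 2.

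Slc25a17, a carrier of the peroxisomal membrane for coenzyme A and related cofactors, read 10.92, 10.98 and 10.54 in knockout livers, against 10.43, 10.46, 10.32 and 10.58 in rescued livers. Knockout replicate 3 fell among the rescued arrays. The difference was 0.36 (adjusted p = 0.0463), with adjusted p = 0.0530 after quantile normalization and 0.131 after median centring. Of the 7 sets with an array left out, it was called only without knockout replicate 3.

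Slc25a32, the transporter for mitochondrial folate, had the largest fall among the carriers. It read 8.36, 8.59 and 8.76 in knockout livers, against 9.17, 8.98, 9.37 and 9.06 in rescued livers, spread out in both groups but without overlap. The difference was -0.58 (SE 0.11), 1.49-fold lower (adjusted p = 0.0103), and from -0.69 to -0.48 over all alternatives, with adjusted p never above 0.04998. None of 5 enzymes of mitochondrial folate metabolism was called. The serine hydroxymethyltransferase Shmt2 had the smallest p of them and a difference of 0.30 (adjusted p = 0.0603), and was called without knockout replicate 3 (0.43, adjusted p = 0.0142).

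The pyrimidine nucleotide carriers are Slc25a33 and Slc25a36. Slc25a33 read 7.84, 7.66 and 7.59 in knockout livers, against 7.12, 7.43, 7.50 and 7.35 in rescued livers. The groups did not overlap, though the closest arrays lay near each other. The difference was 0.35 (adjusted p = 0.0404), with adjusted p = 0.154 after median centring and 0.0592 after cyclic loess. Of the 7 sets with an array left out, it was called only without knockout replicate 3. The 2 rows of Slc25a36 disagreed in sign, with a difference of -0.19 at the brighter row and 0.22 at the other, and neither was called with p adjusted over all rows (0.178 and 0.247). The brighter row was called after median centring (-0.31, adjusted p = 0.0492). The NAD carrier Slc25a51 (0.23), the S-adenosylmethionine carrier Slc25a26 (-0.07) and Slc25a16 (-0.09) were not called either.

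Among 4 carriers linked to iron and glutathione, 1 was higher and 1 lower. Slc25a28, mitoferrin 2, which takes iron into the matrix, read 8.78, 8.67 and 8.70 in knockout livers, against 8.55, 8.43, 8.34 and 8.52 in rescued livers. The difference was small at 0.25 (SE 0.07, adjusted p = 0.0439), was not called after median centring (0.14, adjusted p = 0.191) and of the 7 sets with an array left out was called only without rescued replicate 1. Mitoferrin 1, Slc25a37, averaged 9.24 ± 0.09 in knockout (SD, n = 3) and 9.13 ± 0.10 in rescued livers (SD, n = 4) and was not called (0.11, adjusted p = 0.327).

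Slc25a39 and Slc25a40 take glutathione into mitochondria. Slc25a40 read 6.62, 6.34 and 6.62 in knockout livers, against 6.86, 6.84, 7.14 and 6.95 in rescued livers, without overlap. Its difference was -0.42 (SE 0.10, 1.34-fold lower, adjusted p = 0.0215), and it was not called with knockout replicate 1, knockout replicate 2 or rescued replicate 3 left out. Its other row, at 5.00 in knockout and 4.94 in rescued livers, lay within the receptor genes' range and differed by 0.06. With the mean of both rows the difference was -0.18 and not called (adjusted p = 0.0917). Slc25a39 averaged 12.03 ± 0.11 in knockout (SD, n = 3) and 11.85 ± 0.04 in rescued livers (SD, n = 4), a difference of 0.18 that was not called (adjusted p = 0.101). With an array left out, Slc25a39 was called only without knockout replicate 3 (adjusted p = 0.0474).

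**Figure D3:**
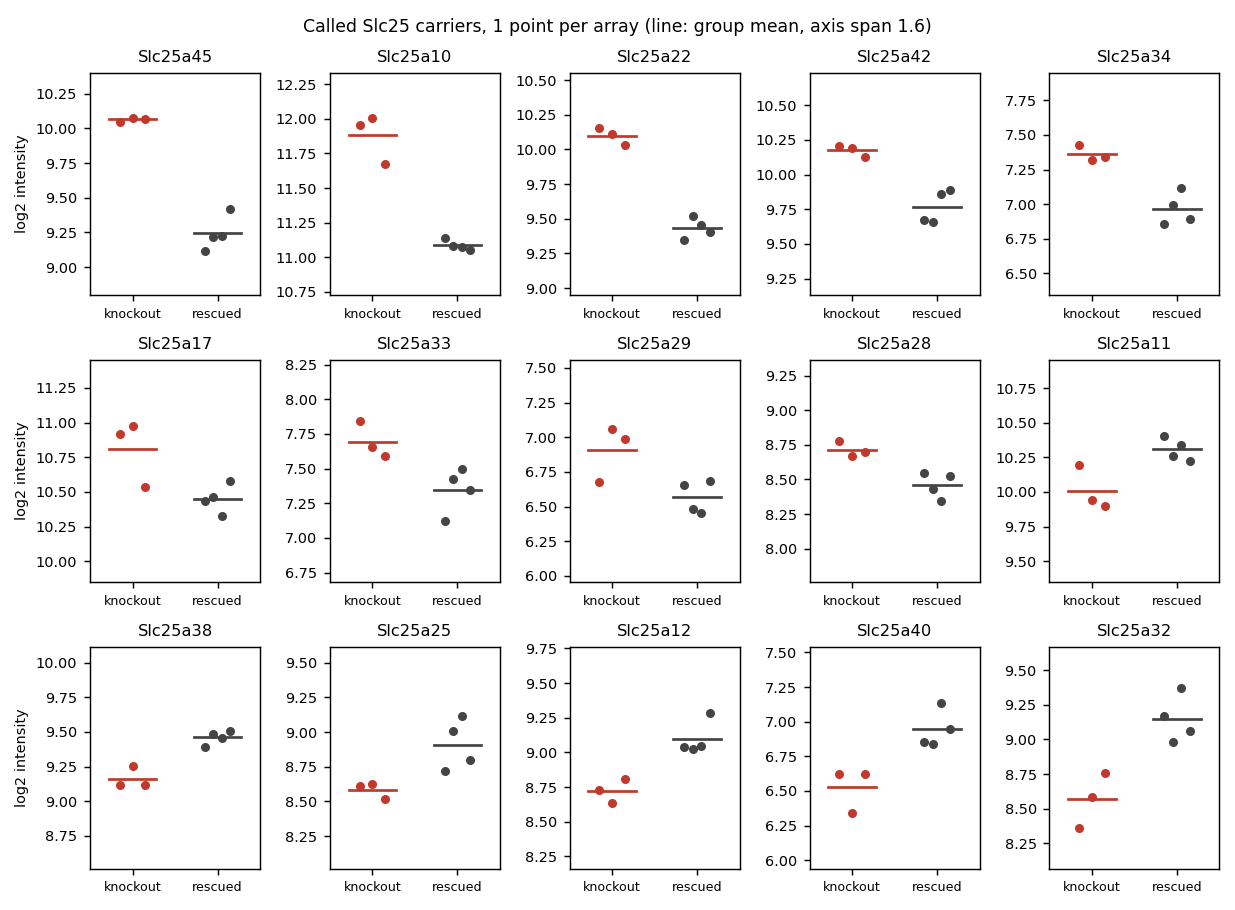
Log2 intensity of the 15 called carriers, 1 point per array and a line at each group mean, with knockout livers in red at the left and rescued livers in grey at the right. Each panel spans 1.6 log2 units. The arrays overlap between groups only for Slc25a17 and Slc25a29.

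The carriers that exchange ADP for ATP and import phosphate for ATP synthase showed no called difference. The ADP/ATP carrier Slc25a5 read 13.49, 13.50 and 13.33 in knockout livers, against 13.28, 13.23, 13.19 and 13.35 in rescued livers, and knockout replicate 3 fell below 1 rescued array. Its difference was 0.18 (95% confidence interval 0.01 to 0.34, adjusted p = 0.114) as deposited and 0.09 after cyclic loess. Its 2 other rows differed by 0.13 and 0.10. The phosphate carrier Slc25a3 averaged 12.14 ± 0.10 in knockout (SD, n = 3) and 12.10 ± 0.01 in rescued livers (SD, n = 4), with a 95% confidence interval of -0.11 to 0.19 for the difference. Slc25a4, the form of heart and muscle, differed by 0.05 (95% confidence interval -0.11 to 0.20), and Slc25a31, known from testis, lay within the receptor genes' range.

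The calcium-binding ATP-Mg/phosphate carriers adjust the adenine nucleotide pool of the matrix, and 1 of 4 was called. Slc25a25 read 8.61, 8.62 and 8.52 in knockout livers, against 8.72, 9.01, 9.11 and 8.80 in rescued livers, where the arrays were widely spread. Its difference of -0.32 (adjusted p = 0.0466) was not called after quantile normalization (adjusted p = 0.0598) or cyclic loess (0.0559), and of the 7 sets with an array left out it was called only without rescued replicate 1. Slc25a23 read 11.54, 11.61 and 11.43 in knockout livers, against 11.30, 11.33, 11.31 and 11.28 in rescued livers. Its groups did not overlap, and its difference of 0.22 just missed the threshold (adjusted p = 0.0513). With an array left out, Slc25a23 was called only without knockout replicate 3 (adjusted p = 0.0361), and after median centring its difference was 0.11 (adjusted p = 0.333). Slc25a41 differed by 0.08, and Slc25a24 lay within the receptor genes' range.

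Of 9 measured carriers whose transport is less well described, 2 were higher and none lower. Slc25a45 had the largest rise of all 44 members. It read 10.05, 10.08 and 10.07 in knockout livers, against 9.12, 9.22, 9.23 and 9.42 in rescued livers, so the knockout arrays were nearly equal and all stood above the rescued ones. The difference was 0.82 (SE 0.08), 1.76-fold higher (adjusted p = 0.000285), and it ran from 0.70 to 0.88 over all alternatives.

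Slc25a34 read 7.43, 7.32 and 7.34 in knockout livers, against 6.86, 6.99, 7.12 and 6.90 in rescued livers, without overlap. The difference was 0.40 (SE 0.08), 1.32-fold higher (adjusted p = 0.0116), and of the 7 sets with an array left out it missed the threshold only without knockout replicate 1 (adjusted p = 0.0505). Slc25a47, known as a carrier found mainly in liver, read 11.40, 11.34 and 11.50 in knockout livers, against 11.49, 11.30, 11.34 and 11.76 in rescued livers. Its groups overlapped, and the 95% confidence interval of its difference ran from -0.29 to 0.17. Slc25a35 differed by -0.26 and was not called as deposited (adjusted p = 0.134), but was called after quantile normalization (-0.37, adjusted p = 0.0437) and median centring (-0.37, adjusted p = 0.0379). Slc25a43 (0.13), Slc25a46 (0.17), a carrier relative of the outer membrane linked to mitochondrial shape, and Slc25a48 (-0.05) were not called. With an array left out, Slc25a46 was called only without knockout replicate 3 (adjusted p = 0.0458). Slc25a53 and Slc25a54 lay within the receptor genes' range.

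Relatives of the uncoupling proteins gave no call among 3 members. Slc25a27 had the smallest p of them, at 6.46 ± 0.05 in knockout (SD, n = 3) and 6.34 ± 0.07 in rescued livers (SD, n = 4). Its difference was 0.12 as deposited and -0.01 after cyclic loess. Slc25a30 averaged 9.99 ± 0.03 in knockout (SD, n = 3) and 10.13 ± 0.19 in rescued livers (SD, n = 4), and Slc25a14 lay within the receptor genes' range. In all, 6 of 44 members (Slc25a2, Slc25a14, Slc25a24, Slc25a31, Slc25a53 and Slc25a54) were within that range in both groups, and none of them was called.

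**Figure D4:**
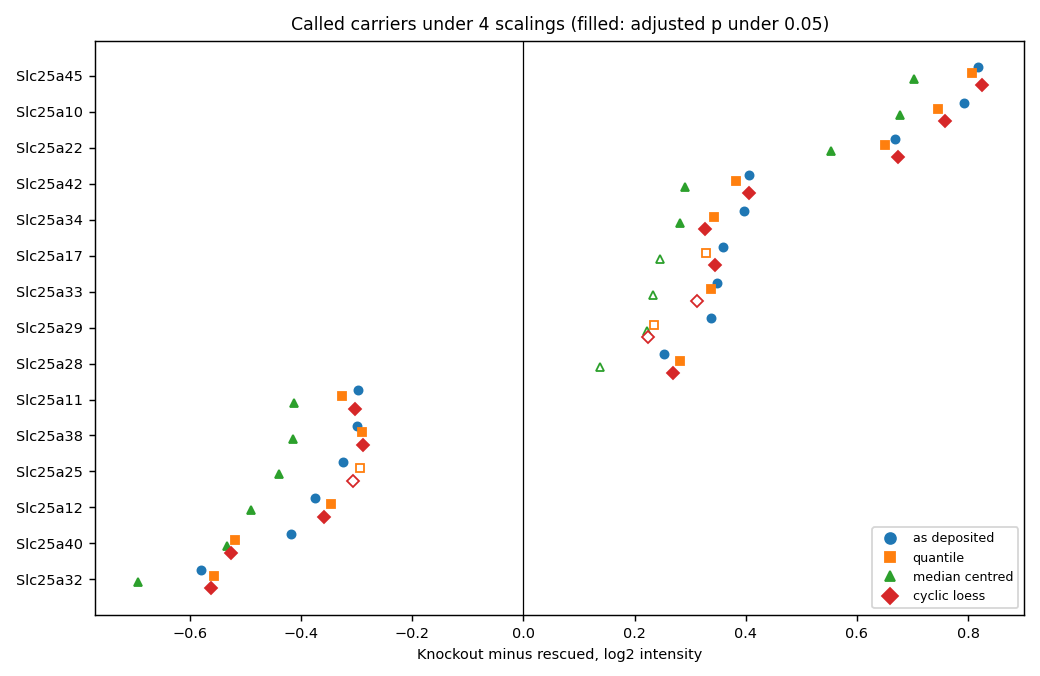
Differences (knockout minus rescued, log2 intensity) of the 15 called carriers on the deposited values and after quantile normalization, median centring and cyclic loess. Filled symbols have adjusted p under 0.05 and open symbols do not. No called carrier changes sign, and open symbols occur for Slc25a17, Slc25a25, Slc25a28, Slc25a29 and Slc25a33.

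Centring on the medians, which lowers the knockout arrays relative to the rescued ones, moved the split among the carriers to 5 higher and 10 lower, against 9 higher and 6 lower as deposited. The share called over all genes was 13.5% with that centring. Quantile normalization gave 7 higher and 6 lower members, with 9.98% of all genes called, and cyclic loess 7 higher and 5 lower, with 9.84% of all genes called. Of the 15 called as deposited, 11 stayed called with median centring, 12 with quantile normalization and 12 with cyclic loess.

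Of the carriers left out by the rule, Slc25a20, which takes acylcarnitines into the matrix, was at 10.69 ± 0.12 in knockout (SD, n = 3) and 10.29 ± 0.08 in rescued livers (SD, n = 4), a difference of 0.40 (adjusted p = 0.0111). The citrate carrier Slc25a1 differed by -0.08 and was not called. Family members under other symbols (Ucp1, Ucp3, Mtch1 and Mtch2) held no call as deposited, with Mtch2 at 0.22 (adjusted p = 0.0651) closest. Mtch1 differed by -0.19 as deposited and was called lower after median centring (-0.30, adjusted p = 0.0221).

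Of 11 other inner membrane transporters measured, 1 was higher and none lower, against 14.4% of all genes called. This was Mpc1, a subunit of the pyruvate carrier, at 11.96 ± 0.12 in knockout (SD, n = 3) and 11.65 ± 0.03 in rescued livers (SD, n = 4), with no overlap between the arrays (0.31, adjusted p = 0.0220). It was not called after median centring, and leaving out knockout replicate 1 or 2, or rescued replicate 2 or 3, also ended the call. Of 8 genes of the import route of carriers, 1 was lower, Timm9, a chaperone of the intermembrane space that escorts carriers (-0.33, adjusted p = 0.0366). Timm9 was called in every scaling, but of the 7 sets with an array left out only without rescued replicate 1. After median centring Tomm22, a receptor subunit of the outer membrane translocase, was also lower (-0.29, adjusted p = 0.0464). Of the 3 pores of the outer membrane, Vdac2 was lower (-0.23, adjusted p = 0.0385). Vdac2 was called in every scaling, but of the 7 sets with an array left out only without knockout replicate 3 or rescued replicate 1, and with the mean of its 2 rows it was not called (-0.12, adjusted p = 0.207).

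**Figure D5:**
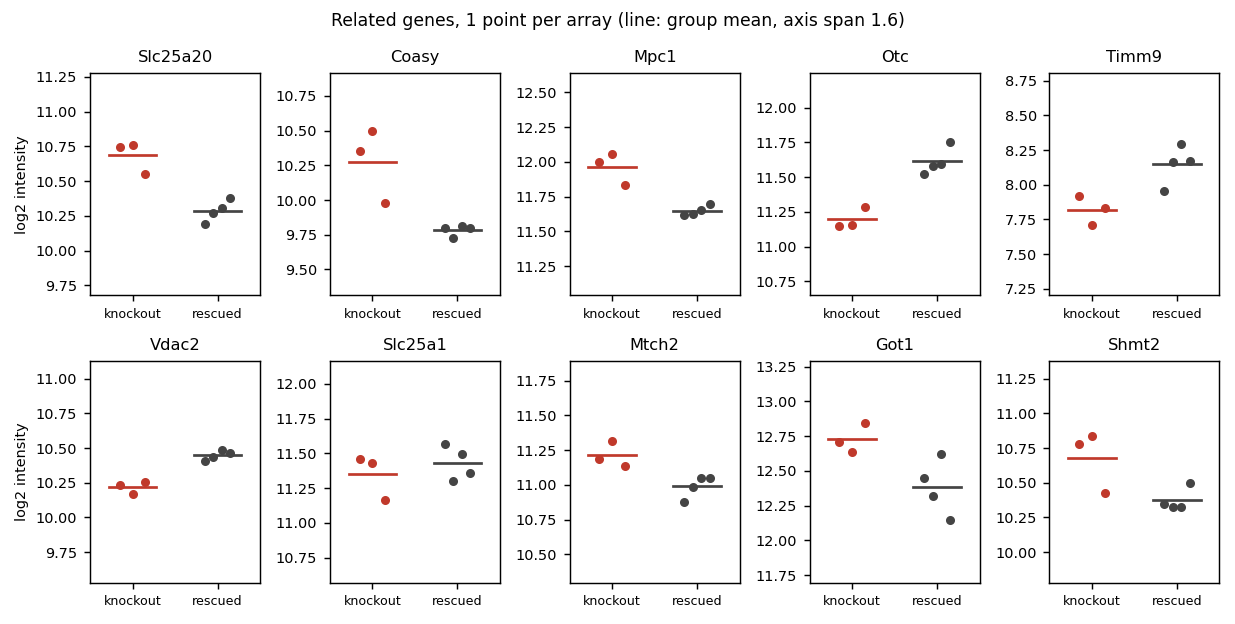
Log2 intensity of 10 genes related to the carriers, 1 point per array and a line at each group mean, with knockout livers in red at the left and rescued livers in grey at the right. Each panel spans 1.6 log2 units. Slc25a20, Coasy and Mpc1 were called higher, Otc, Timm9 and Vdac2 lower, and Slc25a1, Mtch2, Got1 and Shmt2 were not called.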

How the data were processed

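Total RNA from frozen liver, extracted with Trizol, was labelled with biotin for the arrays, per the labels' protocols. The deposited values are linear intensities for 27541 rows (5.41 to 17351), and RMA and Partek appear in the submitters' processing notes without versions or roles. What scaling the authors applied last is unknown. For the genome build, nothing is stated in the labels used here.

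Rows were named through the platform annotation (21631 with 1 symbol, 1317 with several, 4593 with none), and all 44 members matched the RefSeq table by gene ID with unchanged symbols. Probes of close paralogs can cross-hybridise. The test on log2 intensities was that of limma 3.58.1, run in R 4.3.3 (lmFit, eBayes, no covariates, no filter, two-sided) with Benjamini-Hochberg adjustment over 19933 genes, so the p-values measure the spread between these mice. The fit was tested on simulated data. The number of arrays limits the precision. Alternatives were 3 rescalings, a filter on dim genes, the mean of a gene's rows, trend with robust spread, array weights, a replicate block, each array left out, and thresholds of 0.01 and 0.1. Figures used matplotlib 3.10.9.

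Named are Hdac3, every called member, the smallest p of a role group with no call, and of each related list up to 3 called genes or the smallest p. Other members and markers are given by their differences, ranges or counts. The members and lists were chosen with earlier results of these data known. Equal values made up at most 3.79% of the rows between any 2 arrays. Slc25a52 was listed but not analysed here.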

Additional observations from a re-analysis of the deposited data

Results flagged for a closer look

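In the rescued group of 4 arrays, a value was marked when its gap to the nearest array, as a share of the group's range, passed Dixon's 95% critical value of 0.829. This was tested for 54 genes, and chance marks about 1 group in 20. Rescued replicate 4 was the highest for Slc25a12 (9.28, the others at 9.03 to 9.05) and for Shmt2 (10.50, the others at 10.33 to 10.35), and the lowest for Slc25a15 (10.70, the others at 10.79 to 10.81). Rescued replicate 2 was the highest for Slc25a3 (12.12, the others at 12.10) and the lowest for Coasy (9.73, the others at 9.80 to 9.81). Rescued replicate 1 was the highest for Slc25a54 (4.635, the others at 4.33 to 4.34), a row within the receptor genes' range.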

How the results depend on the processing

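Hdac3 and the 5 members Slc25a45, Slc25a10, Slc25a22, Slc25a42 and Slc25a32 kept their direction in all 15 alternatives, and these 5 members also kept their call at the 0.05 threshold. Hdac3 ran from -0.56 to -0.40 with an array left out and was not called without knockout replicate 1 (-0.49, adjusted p = 0.05001). Median centring gave 5 higher and 10 lower members, and a threshold of 0.01 in limma gave 3 and 0 (9 higher and 6 lower at 0.05, and 22 members at an unadjusted p under 0.05, as were 7115 of 19933 genes). The share of all genes called at 0.01 is not given here. With an array left out, 5 to 10 members were higher and 2 to 5 lower. Removing knockout replicate 1, knockout replicate 2 or rescued replicate 3 left 5 higher and 2 lower, removing rescued replicate 4 left 5 and 3, and removing rescued replicate 2 left 5 and 4. Over all genes 897 to 3263 were called in these fits, against 2867. The members' median of 0.11 was 0.0054 after quantile normalization, -0.0055 after median centring, 0.0005 after cyclic loess, and 0.0795 to 0.109 with an array left out. Slc25a27, which was not called, differed by -0.0047 after quantile normalization and by -0.0128 after cyclic loess. The causes were not tested. Numbered arrays shared only a number (correlations of 0.15, 0.003 and 0.005 between same-numbered deviations, and 1 of 3 knockout arrays matched its own number best). The replicate block gave 6 higher and 4 lower members and a median of 0.10. Rescued replicate 4 has no same-numbered knockout array, so the block also takes it out of the difference. With the block 9.72% of all genes were called, against 6.68% with that array left out and no block, and 14.4% in the main fit. Slc25a25, Slc25a28, Slc25a29, Slc25a33, Slc25a38, Timm9 and Vdac2 were not called with the block (adjusted p = 0.0513 to 0.0903). Each of these also lost its call with only rescued replicate 4 left out, so their loss is not particular to the block. The number of arrays limits what could be called, and rows within the receptor genes' range are not shown to be above background.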
